A study of Mus musculus with 128 samples.

Results

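Gene expression was compared between adult hippocampus of Dp(16)1/Yey mice and that of their euploid littermates on Affymetrix Mouse Gene 1.0 ST arrays. The comparison held 10 of the 128 arrays of the series, chosen by tissue and line: 5 arrays labelled trisomic (TS254, TS255, TS277, TS278 and TS281) and 5 labelled euploid (Eup260, Eup263, Eup274, Eup279 and Eup280), each from a different male of 6 to 7 months. The series asked how gene expression differs between 3 mouse models of Down syndrome (Dp(16)1/Yey, Ts65Dn and Ts1Cje) and their euploid littermates in E15.5 forebrain and in adult cortex, hippocampus and cerebellum. Trisomic animals carried the duplication of the strain B6129S-Dp(16Lipi-Zfp295)1Yey/J, passed on by males mated to C57BL/6J females, or C57BL/6N females by the study's methods, so both groups share this mixed background and neither received a treatment. Litters were not given in the sources used here, and the P values therefore measure the spread between these 10 animals. The same animals also gave a cortex and a cerebellum array each.

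In Dp(16)1/Yey mice the whole stretch of mouse chromosome 16 (MMU16) that is orthologous to human chromosome 21 is duplicated in tandem, so that its genes are present in an extra copy on an otherwise unchanged chromosome. It holds genes such as App, the amyloid precursor, Dyrk1a, a kinase that limits neuronal precursor proliferation, and the receptor subunits for interferons. The hippocampus, with its CA fields and dentate gyrus, serves spatial and episodic memory, a function affected in Down syndrome.

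Each of the 21225 probe sets reads 1 gene. The duplication spans the probe sets mapped from Lipi to Zbtb21, at chr16:75540514-97962627 (GRCm38.p6). Of these, 68 had a mean signal above the median of all probe sets and 73 lay below it. The mean log2 signal of the 68 brighter segment probe sets was 8.44 in Eup260, 8.47 in Eup263, 8.42 in Eup279 and 8.47 in Eup280, but 8.89 in Eup274. Trisomic arrays read 8.80 in TS254, 8.92 in TS255, 8.91 in TS277, 8.89 in TS278 and 8.89 in TS281. Thus 4 euploid arrays (8.45 ± 0.03, SD, n = 4) lay below every trisomic array (8.88 ± 0.05, SD, n = 5), and the array labelled Eup274 lay inside the trisomic range. The cortex and cerebellum arrays carrying the same label did likewise: 8.72 in cortex against 8.33 to 8.39 in the other euploid and 8.69 to 8.78 in the trisomic animals, and 8.87 in cerebellum against 8.34 to 8.45 and 8.83 to 8.88.

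**Figure D1:**
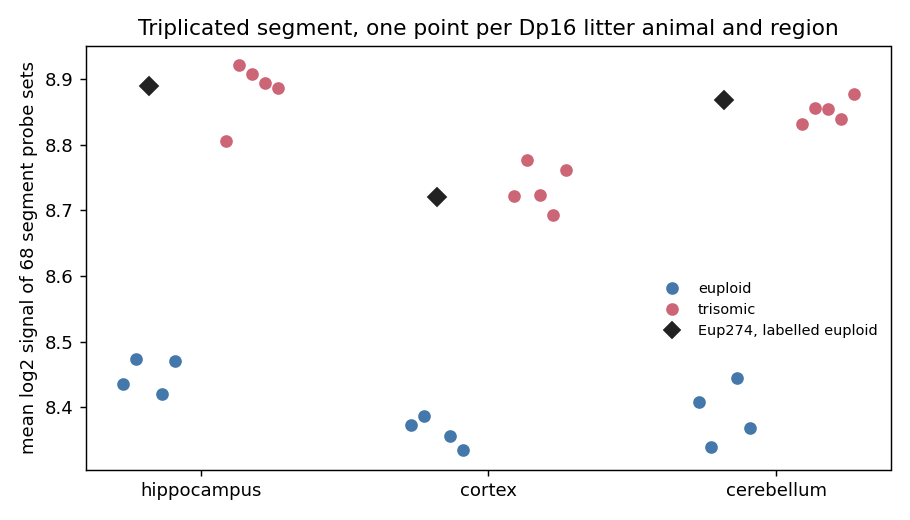
Mean log2 signal of the probe sets of the duplicated segment that were above the median signal (y axis) for each animal, in hippocampus, cortex and cerebellum (x axis), with points for single arrays and a black diamond for Eup274. In the hippocampus the 4 other euploid arrays sit between 8.42 and 8.47, while Eup274 at 8.89 sits among the 5 trisomic arrays at 8.80 to 8.92.

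Gene by gene, Eup274 was nearer to the trisomic mean than to the mean of the 4 other euploid arrays at 66 of the 68 brighter segment probe sets (97.1%), compared with 5918 of 10544 equally bright probe sets elsewhere in the genome (56.1%). The median difference of Eup274 from the 4 other euploid arrays at the 68 probe sets was 0.46 on the log2 scale, beside 0.44 for the 5 trisomic arrays. The signals of this animal thus went against its label on MMU16 in all 3 regions. Counts of differentially expressed genes are therefore given as labelled (5 against 5) and without Eup274 (5 against 4), and other values are those without Eup274 where only 1 comparison is given.

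Among the other facts of the arrays, Eup260 stood apart on the first principal component (28.9% of the variance, score 21.9 against -4.55 to -0.20) and correlated less with the rest (median 0.977 against 0.986 to 0.991), while array medians spanned 6.64 to 6.68. The hippocampal label was borne out by its markers: median signals of Prox1 (dentate granule cells), Zbtb20 and Neurod6 were 8.89, 10.6 and 10.0 in hippocampus and 7.01, 9.38 and 8.72 in cortex, values from tables normalized separately. Wfs1, a CA1 marker, overlapped between both regions (9.19 to 9.63 and 9.11 to 9.44). Choroid plexus genes, from a neighbouring tissue, varied widely: the mean of 18 such genes was 6.33 in TS254 and 6.67 in Eup279 against 7.76 to 8.50 in the other 8 arrays. TS277 had the highest mean of the thalamus list (7.55 against 6.55 to 7.06) and of the striatum list (7.93 against 7.27 to 7.46). In pieces of tissue, fewer cells of a type and less RNA per cell cannot be told apart.

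Differentially expressed (DEX) genes were called at a false discovery rate (FDR) below 10%, adjusted jointly over all 12 comparisons of the series. For the counts without Eup274, its array was left out of the hippocampus fit only. The cortex and cerebellum fits in that adjustment kept the animal as euploid. As labelled, limma called 14 DEX genes in the Dp(16)1/Yey hippocampus, 12 upregulated (0.0565% of the 21225 tested) and 2 downregulated (0.00942%). Without Eup274 there were 62, with 57 upregulated (0.269%) and 5 downregulated (0.0236%). The lists shared 12 genes, 85.7% of the first and 19.4% of the second. Of the 14 genes, 6 lay in the duplicated segment, and of the 62 genes, 45 did. At FDR cut-offs of 5% and 20% the counts were 4 and 38 as labelled and 45 and 95 without Eup274.

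The number of calls depended on single arrays. Leaving out 1 of the other arrays from the 5 against 5 comparison left 4 (without TS281), 5 (without TS278 or Eup263), 7 (without Eup279 or Eup280) or 9 DEX genes (without Eup260, TS254, TS255 or TS277). After Eup274 was removed, leaving out a further array gave 47 to 65. Of the 14 genes called as labelled, Snord85 and Cmbl were DEX in all 10 results with 1 array left out, Cmc1 in 8, Magohb in 5, Enpp6 in 4, and Cxadr, Il10rb, Smim11, Id2 and a in 2. Bace2, D16Ertd472e, Ncam2 and Nat1 were DEX in 1 of these 10 results, the one without Eup274.

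Genes of the duplicated segment were higher as a group. Among all probe sets of the segment, the 68 brighter and 73 dim ones together, 60 were higher in trisomic hippocampus at an unadjusted P below 0.05 as labelled, where 5.36% of all probe sets were, and 71 were higher without Eup274, where 6.2% of all probe sets were. Those lower at this P were 2 and 5 (4.72% and 6.13% of all), and the 5 were Krtap26-1 and Krtap6-5, which encode hair proteins, the predicted gene Gm10228, the claudin gene Cldn14 and the integrin-like gene Itgb2l. Nearly all of the rise came from genes with signal: of the 68 brighter probe sets 53 rose as labelled and 60 without Eup274, and of the 73 dim ones 7 and 11. The median fold change (FC) of the 68 was 1.28 as labelled (interquartile range 1.2 to 1.36) and 1.35 without Eup274 (1.27 to 1.48), against the 1.5 that the number of gene copies would give, and that of the 73 dim probe sets was 1.02 as labelled. Of the 68, 15 exceeded an FC of 1.5 without Eup274, and 1 did as labelled. Array FC values were not calibrated against copy number here, and the gap to 1.5 was not tested. In E15.5 forebrain of this line the study reported larger FC values by quantitative PCR than by array for App and Hspa13. For adult cortex and hippocampus it states that changes by both methods were alike, and its main text gives no FC values. In 51 of the 68 every trisomic array read above every one of the 4 euploid arrays, whereas 3.45% of all probe sets showed this. With Eup274 kept among the euploid arrays the numbers were 13 and 1.76%. Eup274 had been set apart by its signal at these same segment probe sets. The larger segment counts and FC values without it, DEX calls included, follow in part from that choice. They are no separate support.

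**Figure D2:**
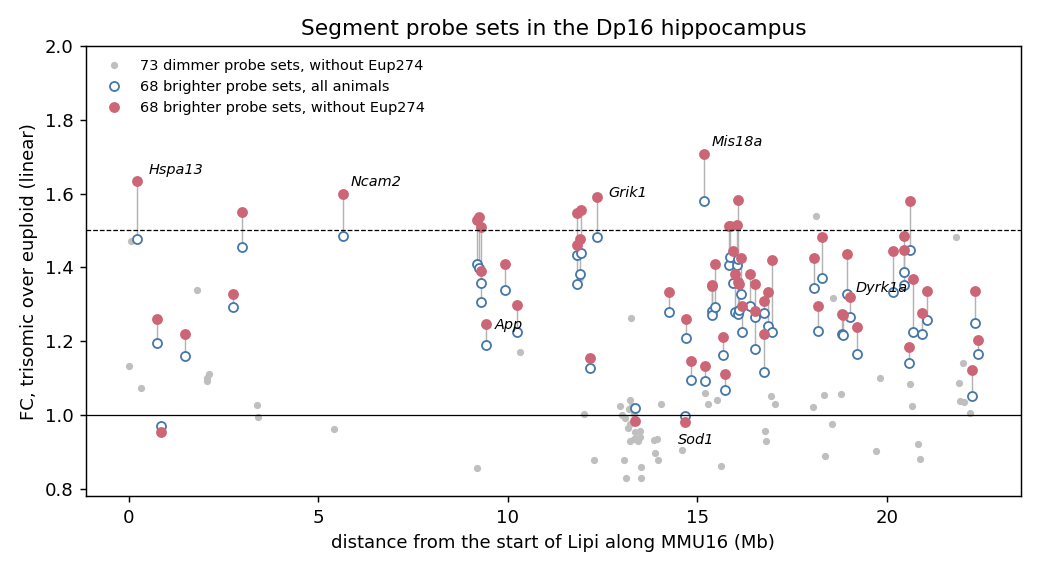
Linear FC of trisomic over euploid hippocampus (y axis) for each probe set of the duplicated segment, against the distance of its start from the start of Lipi in Mb (x axis), with open points for all animals, filled points without Eup274, grey points for the 73 dim probe sets and a dashed line at 1.5. Of the 68 brighter probe sets 66 lie above 1 as labelled and 65 without Eup274, with medians of 1.28 and 1.35.

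In the accounts of genes that follow, values are log2 signals, first for the 4 other euploid arrays in the order Eup260, Eup263, Eup279 and Eup280, then for Eup274, then for the trisomic arrays in the order TS254, TS255, TS277, TS278 and TS281. Fold changes and FDR values are from limma with the joint adjustment, and the error after a log2 change is its SE. Most genes were named for low P values in these arrays, so non-overlap of the groups describes the values and is no further support. Every trisomic array lay above every euploid one at 1.76% of all probe sets as labelled and 3.45% without Eup274. The share with every trisomic array below was not counted.

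The list of synaptic, channel and adhesion genes, which also holds the protease gene Bace2, had 3 of the 6 segment genes that were DEX as labelled. These 3 were Ncam2, Cxadr and Bace2. Without Eup274 the list had 11 of the 45, Bace2 among them. Ncam2, a neural cell adhesion molecule of olfactory and hippocampal axons, read 9.53, 9.28, 9.40 and 9.36 in the euploid arrays, 9.93 in Eup274 and 10.03, 10.01, 10.08, 10.13 and 10.11 in the trisomic arrays. All 5 trisomic values were above all 5 euploid values. The log2 change was 0.57 as labelled (FDR 0.0658) and 0.68 ± 0.07 without Eup274 (FC 1.60, FDR 0.00201). Jam2, a junctional adhesion molecule of endothelium, read 8.52, 8.58, 8.64 and 8.58, then 9.27 in Eup274, then 9.23, 9.27, 9.12, 9.22 and 9.17. Here Eup274 matched the highest trisomic array, and the change went from 0.48 (FDR 0.356) to 0.62 ± 0.06 (FC 1.54, FDR 0.00186), the lowest P value of the 5 against 4 comparison. Cxadr, the coxsackievirus and adenovirus receptor, another junctional protein, was DEX in both comparisons, with 7.09, 6.85, 6.97 and 6.92, 7.14 in Eup274 and 7.28, 7.40, 7.44, 7.39 and 7.31 (0.37 and 0.41 ± 0.07, FDR 0.0731 and 0.0445). No trisomic array of Cxadr overlapped with a euploid one, Eup274 included. Synj1, a phosphoinositide phosphatase of synaptic vesicle recycling, read 11.22 in Eup260, 11.21 in Eup279, 11.11 in Eup280 and slightly less in Eup263, 11.58 in Eup274, and 11.56, 11.53, 11.58, 11.57 and 11.62, with FDR values of 0.406 and 0.0204 and an FC of 1.35 without Eup274. Grik1, a kainate receptor subunit (FC 1.59, FDR 0.00704), the endocytic scaffold Itsn1 (FC 1.30, FDR 0.0274), the adhesion molecule Dscam (FC 1.34, FDR 0.0481) and the Rac exchange factor Tiam1 (FC 1.33, FDR 0.0568) were DEX only without Eup274; the difference between the 2 results was not tested. In all, 13 of the 21 genes of this list rose at P below 0.05 without Eup274 and 1 fell (Cldn14), with 11 DEX and a median FC of 1.30, beside 12, 0, 3 and 1.23 as labelled.

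Of the genes of protein folding, sorting and degradation, all 11 rose at P below 0.05 in both comparisons, with a median FC of 1.38 as labelled and 1.48 without Eup274, where 9 were DEX. Ltn1, the ubiquitin ligase of ribosome quality control, read 8.01, 8.08, 8.09 and 8.15, 8.63 in Eup274, and 8.67, 8.73, 8.66, 8.86 and 8.63 (0.63 ± 0.07, FC 1.55, FDR 0.00249 without Eup274; FDR 0.141 as labelled). The 4 euploid arrays were below all trisomic ones, and Eup274 equalled the lowest of them to within rounding. Cct8, a subunit of the cytosolic chaperonin, read 9.61, 9.81, 9.97 and 9.90, 10.38 in Eup274, and 10.44, 10.44, 10.46, 10.58 and 10.38 (FC 1.56, FDR 0.00645 without Eup274). Hspa13, an Hsp70 family member, read 8.36, 8.91, 8.87 and 8.92, 9.50 in Eup274, and 9.44, 9.50, 9.39, 9.61 and 9.44. Its FC without Eup274 was 1.63 (0.71 ± 0.11, FDR 0.026), and Eup260 was the lowest array by a wide margin. The retriever subunit Vps26c (FC 1.44, FDR 0.00858), Usp16, which removes ubiquitin from histone H2A (FC 1.48, FDR 0.00934), Get1, a receptor for tail-anchored proteins (FC 1.58, FDR 0.0183), and the membrane protein gene Tmem50b (FC 1.51, FDR 0.0154) were also DEX without Eup274. Ttc3, a ubiquitin ligase, rose less, from 11.25, 11.08, 11.22 and 11.19, with 11.49 in Eup274, to 11.51, 11.54, 11.55, 11.59 and 11.46 (0.35 ± 0.06, FC 1.27, FDR 0.0708 without Eup274).

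Among genes of mitochondria and redox reactions, 7 of 8 rose at P below 0.05 in both comparisons (median FC 1.32 and 1.41), with 0 DEX as labelled and 4 without Eup274. Mrpl39, a mitochondrial ribosomal protein, read 8.91, 8.98, 8.85 and 8.92, 9.51 in Eup274, and 9.60, 9.45, 9.56, 9.59 and 9.45 (FC 1.53, FDR 0.00229 without Eup274, 0.219 as labelled). Atp5j, coupling factor 6 of the ATP synthase, read 10.42, 10.38, 10.39 and 10.41, 10.86 in Eup274, and 10.88, 10.87, 10.91, 10.86 and 10.86 (FC 1.39, FDR 0.00365 without Eup274). Cryzl1, a quinone reductase-like gene, read 8.47, 8.46, 8.47 and 8.53, 9.00 in Eup274, and 9.04, 8.98, 8.90, 9.09 and 8.97 (FC 1.43, FDR 0.00496 without Eup274). All 3 genes kept the 4 euploid arrays below every trisomic array. Cbr1, a carbonyl reductase, rose too (FC 1.42, FDR 0.0102 without Eup274).

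Sod1, the cytosolic superoxide dismutase, was the member of that group that did not pass, and is shown, like Clic6, after its values were seen. It read 11.32, 10.69, 10.75 and 10.85 in the euploid arrays, 10.78 in Eup274 and 10.81, 10.77, 10.79, 10.96 and 11.05 in the trisomic arrays. Eup260 gave the highest value of all 10, above every trisomic array, and the change without Eup274 was -0.03 ± 0.12 (FC 0.98, FDR 0.979). As labelled the change was -0.0033, and it became 0.11 when Eup260 was left out (FDR 0.856). The other brighter segment genes that did not reach P below 0.05 without Eup274 were Bach1, Hunk, Olig1, Kcne2, Clic6, Krtap19-4 and Gm9843. Clic6 and Kcne2 are channel genes of choroid plexus epithelium, and their values followed the choroid plexus list: Clic6 read 7.65, 7.86, 5.73 and 7.59, 8.27 in Eup274, and 5.52, 8.40, 8.34, 7.83 and 8.48, with both low values in the 2 arrays in which Ttr was low. Its change was 0.29 as labelled and -0.13 without Eup279. Ttr, transthyretin, the most abundant choroid plexus product, read 13.3, 13.4, 11.5 and 13.3, 13.2 in Eup274, and 10.3, 13.3, 13.3, 12.9 and 13.2. The part of choroid plexus in the result for Clic6 and Kcne2 was not tested.

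The interferon receptor subunits rose together. Ifnar1, a subunit of the type I receptor, read 8.69, 8.74, 8.54 and 8.66, 9.09 in Eup274, and 9.26, 9.21, 9.21, 9.15 and 9.11 (FC 1.44, FDR 0.00549 without Eup274, 0.14 as labelled). Its partner Ifnar2 read 8.17, 8.03, 7.94 and 8.12, 8.60 in Eup274, and 8.52, 8.74, 8.75, 8.65 and 8.65 (FC 1.51, FDR 0.00543). For both, the 4 euploid arrays were below all trisomic arrays. Il10rb, shared by the receptors of interleukin-10 and type III interferons, was DEX in both comparisons, at 7.52, 7.71, 7.52 and 7.48, 7.97 in Eup274, and 8.0, 8.11, 8.14, 8.25 and 8.27 (0.52, FDR 0.0736 as labelled; 0.60 ± 0.08, FC 1.51, FDR 0.00762 without Eup274). Ifngr2, of the interferon gamma receptor, had an FC of 1.38 (FDR 0.0241 without Eup274). Mx1 and Mx2, antiviral dynamin-like GTPases at the distal end of the segment, were dim and did not pass: the changes without Eup274 were 0.12 ± 0.10 (FDR 0.875) and 0.19 ± 0.11 (FDR 0.827).

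Of the 13 chromatin, centromere and RNA processing genes, all were higher, and 11 passed P below 0.05 without Eup274 (10 as labelled), with 7 DEX (0 as labelled) and a median FC of 1.32 (1.27 as labelled). Mis18a, which loads the centromeric histone, had the largest FC of the segment at 1.71 (0.77 ± 0.13, FDR 0.0351 without Eup274), from 6.26, 6.61, 6.54 and 6.53, with 7.05 in Eup274, to 7.15, 7.40, 6.86, 7.51 and 7.37. TS277 was the lowest trisomic array for Mis18a and lay below Eup274. Brwd1, a bromodomain protein, read 8.07, 8.14, 8.07 and 8.18, 8.62 in Eup274, and 8.68, 8.73, 8.59, 8.83 and 8.60 (FC 1.49, FDR 0.00463 without Eup274, 0.178 as labelled). Son, a splicing cofactor, read 10.14, 9.91, 9.92 and 9.89, 10.34 in Eup274, and 10.41, 10.36, 10.36, 10.48 and 10.39 (FC 1.35, FDR 0.0322 without Eup274). Morc3 (FC 1.48, FDR 0.0138), the eRF1 methyltransferase N6amt1 (FC 1.46, FDR 0.00854) and the splicing factor Rbm11 (FC 1.47, FDR 0.0763) were DEX without Eup274. Urb1, a ribosome biogenesis factor, was not (FC 1.13, FDR 0.692).

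Among genes often studied in Down syndrome, App, Dyrk1a and Rcan1 each had an FC below the median of the 68 brighter segment probe sets (1.28 as labelled and 1.35 without Eup274) and above the median of all segment probe sets, most of which were dim. App read 12.49, 12.51, 12.48 and 12.54 in the euploid arrays, 12.84 in Eup274 and 12.82, 12.83, 12.79, 12.84 and 12.82 in the trisomic arrays. The 4 euploid arrays were close to each other and all below the trisomic ones, and the log2 change was 0.32 ± 0.06 without Eup274 (FDR 0.0545) and 0.25 as labelled (FDR 0.519). Dyrk1a read 10.26, 10.00, 10.00 and 10.09, 10.39 in Eup274, and 10.46, 10.39, 10.49, 10.55 and 10.56 (FC 1.32, FDR 0.0755 without Eup274, 0.286 as labelled). Rcan1, an inhibitor of calcineurin, had an FC of 1.33 (FDR 0.0804 without Eup274). With a further array left out of the 5 against 4 comparison, App and Rcan1 stayed DEX in 1 of 9 results and Dyrk1a in 2 of 9. Bace2, a protease related to the beta-secretase, rose more, from 5.68, 5.60, 5.73 and 5.75, with 6.06 in Eup274, to 6.14, 6.21, 6.45, 6.34 and 6.14, and was DEX in both comparisons (FDR 0.0804 and 0.0121, FC 1.48 without Eup274), although not with any other array left out of the 5 against 5 comparison. Of 10 transcription factor genes 4 rose at P below 0.05 without Eup274 (3 as labelled), among them the ETS factor Gabpa (FC 1.51, FDR 0.011) and the nuclear receptor corepressor Nrip1 (FC 1.26, FDR 0.0841). Ets2 had an FC of 1.45 and an FDR of 0.129. With a further array left out of the 5 against 4 comparison, Bace2 and Gabpa stayed DEX in 9 of 9 results and Nrip1 in 0 of 9.

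Of the remaining segment genes, D16Ertd472e, with no role known to the annotation used here, was DEX in both comparisons (6.92, 6.96, 7.19 and 7.07, 7.49 in Eup274, and 7.64, 7.70, 7.59, 7.78 and 7.63; FDR 0.0645 and 0.00365, FC 1.55 without Eup274). Smim11, encoding a small membrane protein, was likewise DEX in both (8.12, 8.17, 8.17 and 8.09, 8.33 in Eup274, and 8.46, 8.53, 8.63, 8.48 and 8.54; FDR 0.0579 and 0.0287). For these genes all trisomic arrays lay above all 5 euploid arrays. Without Eup274 the purine synthesis enzyme Gart (FC 1.36, FDR 0.0264), Donson, a replication fork protein (FC 1.42, FDR 0.0398), the splicing-linked Paxbp1 (FC 1.41, FDR 0.0115), Dnajc28 (FC 1.58, FDR 0.0274), Cfap298 (FC 1.35, FDR 0.0244), Dop1b (FDR 0.0511) and Cyyr1 (FC 1.41, FDR 0.0813) completed the DEX genes of the segment. Psmg1, a proteasome assembly chaperone, had an FC of 1.45 and an FDR of 0.124. None of the 20 keratin-associated genes, which encode hair proteins, rose at P below 0.05 in either comparison, and 7 had a higher mean in trisomic hippocampus without Eup274.

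The segment also encodes microRNAs, and their mature forms are shown because the extra copy covers a cluster of let-7c, miR-99a and miR-125b that is prominent in brain (RefSeq, GRCm38.p6, all on the plus strand; the seed, bases 2 to 8, is in capitals). The cluster lies at chr16:77598940-77646339 and miR-155 at chr16:84714143-84714202.
mmu-miR-99a-5p: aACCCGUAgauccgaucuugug
mmu-let-7c-5p: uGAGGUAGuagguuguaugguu
mmu-miR-125b-5p: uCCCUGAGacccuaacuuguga
mmu-miR-155-5p: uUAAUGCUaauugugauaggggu
No seed is shared among these 4. The probe sets read the transcript of the precursor, not the mature microRNA. Without Eup274 the log2 changes were 0.13 ± 0.17 for Mir99a (FDR 0.922), 0.14 ± 0.22 for Mirlet7c-1 (FDR 0.936), 0.15 ± 0.06 for Mir125b-2 (FDR 0.745) and -0.22 ± 0.12 for Mir155 (FDR 0.809). The long noncoding RNA gene Mir99ahg, annotated at chr16:77329328-77558428, just proximal to the cluster, read 5.65, 5.73, 5.36 and 5.29, 6.02 in Eup274, and 5.50, 5.96, 5.70, 6.32 and 6.17 (0.42 ± 0.16, FDR 0.71). The trisomic and euploid ranges of Mir99ahg overlapped, since TS254 and TS277 lay within the euploid range.

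The rest of MMU16 did not share the shift. The 526 probe sets of this chromosome outside the segment had a median log2 change of 0.00055 as labelled and 0.0029 without Eup274, and the 20558 on other chromosomes -0.01 as labelled and -0.02 without Eup274. Of the 526, 40 were higher and 27 lower at P below 0.05 without Eup274, and 2 were DEX, namely Mir568 and Tbx1.

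Ts65Dn mice carry an extra copy from about Mrpl39 onward and Ts1Cje mice from about Scaf4 onward, which divides the segment into stretches of different copy number among the models. Levels cannot be set side by side, because each model's hippocampal arrays were normalized separately, so trisomic-to-euploid changes are. From Lipi to the gene before Mrpl39, 7 brighter probe sets had a median FC of 1.33 in Dp(16)1/Yey without Eup274 (1.29 as labelled), 1.00 in Ts65Dn and 0.996 in Ts1Cje, and 6, 0 and 0 of them were higher at P below 0.05. From Mrpl39 to the gene before Scaf4, 16 brighter probe sets had medians of 1.43 (1.35 as labelled), 1.33 and 1.02, and 13 (12 as labelled), 12 and 3 of them were higher at this P. The 3 in Ts1Cje, which carries that stretch in the usual number, were Jam2 (0.19 ± 0.05, FDR 0.369), Grik1 (0.15 ± 0.05, FDR 0.683) and Sod1 (0.21 ± 0.08, FDR 0.733). For Sod1, however, the study describes the loss of a functional copy in Ts1Cje. From Scaf4 to Zbtb21, where all 3 lines carry the extra copy, 45 probe sets had medians of 1.35 (1.27 as labelled), 1.35 and 1.36, with 41 (35 as labelled), 37 and 42 higher. The medians thus fell to about 1 in each stretch that a line carries in the usual number.

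**Figure D3:**
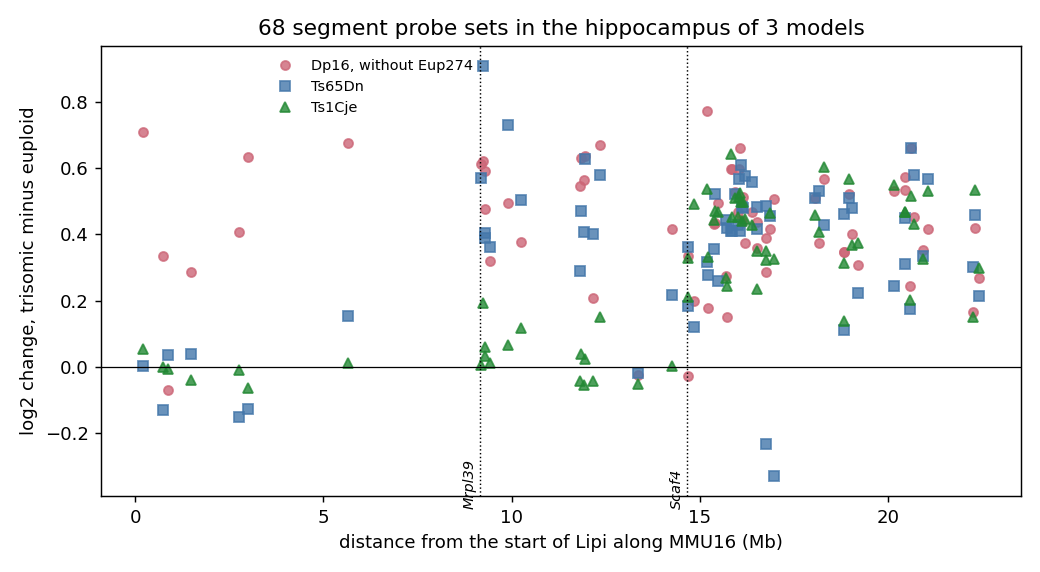
Log2 change of trisomic against euploid hippocampus (y axis) for the 68 brighter probe sets of the segment in Dp(16)1/Yey without Eup274, Ts65Dn and Ts1Cje, against distance from the start of Lipi in Mb (x axis), with dotted lines at Mrpl39 and Scaf4. Points of Ts65Dn lie near 0 before Mrpl39 and those of Ts1Cje near 0 before Scaf4, where the median FC values are 1.00 and 1.02.

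The difference between models was tested per gene by limma as the trisomic change in Dp(16)1/Yey minus that in the other line, at an FDR below 10% over the 21225 probe sets. Against Ts1Cje, 4 genes differed as labelled (0.0188%) and 18 without Eup274 (0.0848%). The 4 were Dnah11, Itgb8, Tmem196 and Sp4 on chromosome 12, next to the translocation breakpoint of Ts1Cje; their changes in Dp(16)1/Yey without Eup274 were -0.0043, 0.0039, 0.045 and 0.033, and in Ts1Cje 3.47, -0.81, -0.61 and -0.48. Without Eup274, 13 segment genes were added, all of them proximal to Scaf4: Ncam2 (difference 0.67 ± 0.08, FDR 0.000196), Mrpl39 (0.61 ± 0.07, FDR 0.000196), N6amt1 (0.59 ± 0.08, FDR 0.00293), Ltn1, Atp5j, Cct8, D16Ertd472e, Jam2, Usp16, Grik1, App (0.31 ± 0.06, FDR 0.0471), Gabpa and Tiam1. The remaining gene was Snord85 on chromosome 4 (-1.0 ± 0.20, FDR 0.0845).

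Against Ts65Dn, 6 genes differed as labelled (0.0283%) and 4 without Eup274 (0.0188%). As labelled, Synj2, Tulp4, Scaf8 and Rsph3a lie on chromosome 17, part of which Ts65Dn also carries in an extra copy, and their changes were -0.05, -0.05, -0.06 and -0.37 in Dp(16)1/Yey and 0.64, 0.49, 0.45 and 0.65 in Ts65Dn. The olfactory receptor gene Olfr1278 also differed (-0.69 ± 0.13, FDR 0.0901), as did 1 gene on chromosome X. Without Eup274 the 4 genes were D16Ertd472e (0.76 ± 0.11, FDR 0.0205), which lies proximal to Mrpl39, with Synj2, Olfr1278 and Tulp4. The 6 genes as labelled became 1 without Eup260, Eup279, Eup280, TS254, TS255 or TS281, 3 without TS277 or TS278 and 5 without Eup263.

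Cortex and cerebellum of the same animals gave a similar size of change in the segment. Over the 68 probe sets the median FC without Eup274 was 1.35 in hippocampus, 1.32 in cortex and 1.38 in cerebellum. No gene differed between the hippocampal and the cortical change by limma at FDR below 10% (0% of 21225 in both comparisons), although 639 differed at an unadjusted P below 0.05 as labelled and 764 without Eup274. For cerebellum the number was 0 as labelled (0%, with 584 at P below 0.05) and 1 without Eup274 (0.00471%), Zc3hav1, an antiviral zinc finger protein on chromosome 6. Its change was -0.02 in hippocampus and 0.61 in cerebellum as labelled, and the difference without Eup274 was -0.79 ± 0.11 (FDR 0.0198). With the animal as a block and Eup274 left out, 3 genes passed, namely Zc3hav1 (FDR 0.0151), Th, tyrosine hydroxylase (-0.83 ± 0.14, FDR 0.073), and Ifit1, an interferon-induced gene (-1.09 ± 0.19, FDR 0.073).

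Outside the segment, 8 DEX genes were found as labelled and 17 without Eup274 (12 higher and 5 lower), of which 6 were in both. Snord85, a C/D box small nucleolar RNA, gave the lowest P value as labelled. It read 5.62, 4.96, 4.90 and 4.97 in the euploid arrays, 4.94 in Eup274 and 4.12, 4.18, 4.2, 4.28 and 4.08 in the trisomic arrays. Every trisomic array was below every euploid one, Eup274 sat with the other euploid arrays here, and the change was -0.91 ± 0.12 as labelled (FC 0.534, FDR 0.00765) and -0.94 ± 0.13 without Eup274 (FC 0.522, FDR 0.0121). As labelled, the change in cortex was -0.30 ± 0.20 and in cerebellum -0.26 ± 0.28. Snord85 and Cmbl stayed DEX whichever of the 10 arrays was left out, but not in every setting. By the methods' t-test the FDR of Snord85 was 0.12 as labelled and 0.198 without Eup274, and that of Cmbl 0.117 and 0.0929. With adjustment over the hippocampus comparison alone, the limma FDR as labelled was 0.11 for Snord85 and 0.209 for Cmbl.

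Cmbl on chromosome 15, a hydrolase that opens lactone rings, read 7.26, 7.40, 7.56 and 7.31, 7.59 in Eup274, and 7.86, 7.80, 7.97, 7.97 and 8.0 (0.50 ± 0.08, FC 1.41, FDR 0.0226 as labelled; FC 1.45, FDR 0.0157 without Eup274). Cmc1 on chromosome 9, an assembly factor of cytochrome c oxidase, read 6.67, 6.75, 6.92 and 6.89, 6.92 in Eup274, and 7.19, 7.18, 7.20, 7.33 and 7.29 (FC 1.33, FDR 0.0338 as labelled, 0.0438 without Eup274). Enpp6 on chromosome 8, a choline phosphodiesterase of newly forming oligodendrocytes, was lower, at 6.51, 6.61, 6.54 and 6.62, 6.32 in Eup274, and 6.13, 5.94, 6.21, 6.08 and 6.12 (-0.43 ± 0.07, FC 0.74, FDR 0.0458 as labelled; FC 0.72, FDR 0.0161 without Eup274). In these 3 genes, picked by P value from the same arrays, the trisomic and euploid arrays did not overlap. Of 22 oligodendrocyte and myelin genes, Enpp6 was the only one past P below 0.05 without Eup274 (2 were lower as labelled); the median of the list was -0.0073.

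Nat1 on chromosome 8, an arylamine N-acetyltransferase, read 4.52, 4.35, 4.41 and 4.58, 4.89 in Eup274, and 5.02, 5.00, 5.04, 5.12 and 5.18 (FC 1.43, FDR 0.0559 as labelled; FC 1.52, FDR 0.00365 without Eup274). The agouti gene, a on chromosome 2, which sets coat color, read 5.91, 5.62, 5.78 and 5.74, 5.98 in Eup274, and 6.38, 6.20, 6.26, 6.12 and 6.52 (FC 1.40, FDR 0.0691 as labelled; FC 1.45, FDR 0.0497 without Eup274). Neither gene overlapped between trisomic and euploid arrays. Magohb, of the exon junction complex, and Id2, an inhibitor of basic helix-loop-helix factors, were DEX only as labelled. Magohb read 5.19, 5.16, 5.38 and 5.23, 5.27 in Eup274, and 5.59, 5.72, 5.60, 5.88 and 6.08 (FC 1.44, FDR 0.0506 as labelled, 0.101 without Eup274), and Id2 had an FC of 1.24 (FDR 0.0649 and 0.158). All trisomic arrays of both genes were above all euploid arrays.

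The other 11 genes outside the segment were DEX only without Eup274. Rida on chromosome 15, a deaminase of reactive intermediates, read 8.72, 8.89, 8.91 and 8.95, 9.47 in Eup274, and 9.60, 9.65, 9.27, 9.46 and 9.62 (0.65 ± 0.09, FC 1.57, FDR 0.0105). Cyp11a1 on chromosome 9, which starts steroid synthesis from cholesterol, was lower, at 5.28, 5.23, 5.43 and 5.28, 4.35 in Eup274, and 4.70, 4.94, 4.88, 4.56 and 4.78 (FC 0.69, FDR 0.0311). Htr3a on chromosome 9, the ionotropic serotonin receptor of interneurons, read 7.56, 7.46, 7.51 and 7.51, 8.14 in Eup274, and 8.10, 7.96, 7.85, 7.76 and 7.96 (FC 1.33, FDR 0.0677). In Rida, Cyp11a1 and Htr3a, Eup274 was within the trisomic range or beyond it. Genes that pass only once this array is removed tend to be those in which it lay with the trisomic arrays. Its place in these genes is therefore no separate evidence on its label. Tbx1, a T-box factor on the proximal part of MMU16, read 6.87, 6.51, 6.54 and 6.53, 6.18 in Eup274, and 6.13, 5.89, 6.17, 6.10 and 6.25 (FC 0.70, FDR 0.0915), and the selenoprotein gene Selenov read 5.10, 5.49, 5.38 and 5.55, 6.08 in Eup274, and 5.89, 5.83, 5.77, 5.86 and 5.93 (FC 1.39, FDR 0.0924). Olfr45 was lower (-0.45 ± 0.08, FDR 0.0638) and Eapp, an E2F-associated phosphoprotein, higher (FC 1.32, FDR 0.0643).

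Mir568, the other DEX gene on MMU16, lies at chr16:43640655-43640737, proximal to the segment. Its mature form is shown as the microRNA among these calls (RefSeq, GRCm38.p6, plus strand, seed in capitals).
mmu-miR-568: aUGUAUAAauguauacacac
The probe set, which reads the precursor, gave 7.67, 7.74, 7.73 and 7.59, 8.12 in Eup274, and 8.18, 8.34, 8.0, 8.24 and 8.39 (FC 1.46, FDR 0.0223 without Eup274). Only Eup274 among the euploid arrays reached the trisomic range. Of 305 microRNA genes outside the segment, 2 were higher and 32 lower at P below 0.05 without Eup274 (2 and 24 as labelled), with a median log2 change of -0.09 beside -0.02 over all probe sets; 30 of the 305 were brighter than the median signal.

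**Figure D4:**
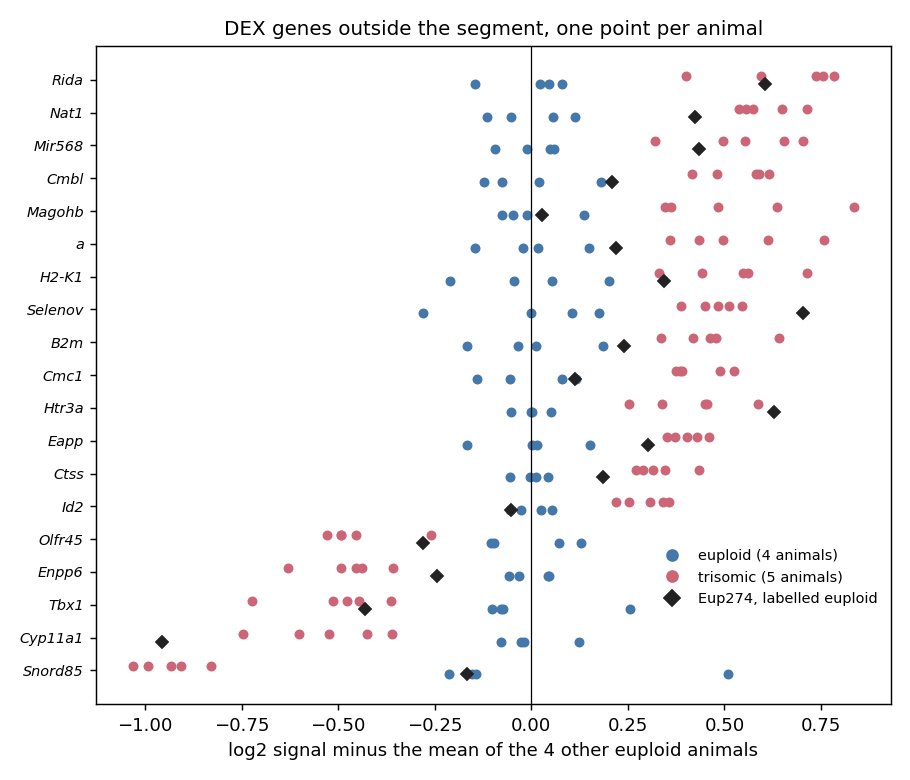
Log2 signal of each DEX gene outside the segment (y axis, 19 genes) in each of the 10 arrays, as the difference from the mean of the 4 other euploid arrays (x axis), with separate markers for the euploid arrays, Eup274 and the trisomic arrays. For Snord85, at the low end, Eup274 sits with the euploid arrays, and for Rida, Cyp11a1 and Htr3a it sits with or beyond the trisomic arrays. Rida, Cyp11a1 and Htr3a were DEX only without Eup274, a choice that favours such a position.

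Hippocampal arrays of the other lines came from other animals and allow the 17 genes to be read again. In Ts1Cje hippocampus, 6 of the 12 genes that were higher in Dp(16)1/Yey were higher at P below 0.05 (Rida, Cmbl, Htr3a, Nat1, H2-K1 and Selenov), where 4.19% of all probe sets were, and 3 of the 5 lower genes were lower (Enpp6, Cyp11a1 and Tbx1), where 6.11% were. The changes in Ts1Cje were 0.63 ± 0.07 for Rida (FDR 0.0028), 0.36 ± 0.08 for Cmbl (FDR 0.262), 0.46 ± 0.08 for Htr3a (FDR 0.0564), -0.41 ± 0.07 for Enpp6 (FDR 0.0345), -0.37 ± 0.06 for Cyp11a1 (FDR 0.05) and -0.44 ± 0.06 for Tbx1 (FDR 0.0134). In Ts65Dn hippocampus 1 of the 12 was higher (Selenov), where 3.48% of all were, and 0 of the 5 were lower, where 1.22% were. None of the 17 passed in the opposite direction in either line. Whether Ts1Cje and Ts65Dn differ in these genes was not tested. In the Dp(16)1/Yey cortex and cerebellum, which share their animals with the hippocampus, the log2 changes as labelled were 0.42 and 0.32 for Rida, 0.55 and 0.42 for Selenov and 0.47 and 0.35 for the a gene.

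Marginally dysregulated genes (MDGs), the study's term for P below 0.05 with an FC above 1.2 or below 0.8, numbered 380 as labelled, with 268 higher (1.26%) and 112 lower (0.528%), and 619 without Eup274, with 431 higher (2.03%) and 188 lower (0.886%). As labelled, 54 of them lay in the segment. The higher MDGs made up 70.5% as labelled, 78.8% after a further quantile normalization and 89.7% among probe sets above the median signal. The limits of 1.2 and 0.8 are unequal on the log2 scale and admit smaller rises than falls, which adds to these shares. With a stricter limit for rises, equal in log2 size to that for falls, 137 of 249 MDGs were higher as labelled. The numbers were 155 of 234 after the further quantile normalization and 78 of 97 among probe sets above the median signal. Outside the segment the largest rise as labelled was in Hbb-b1, an adult beta-globin, at 5.14, 5.43, 5.12 and 5.71, 5.71 in Eup274, and 6.37, 6.99, 5.78, 6.10 and 5.88 (0.80, FDR 0.371 as labelled). Trisomic arrays were all higher, by a small margin in TS277. Alas2, of erythroid heme synthesis, moved with it (0.21, FDR 0.734 as labelled), and the mean of 5 erythroid genes was 5.90 to 6.31 in trisomic and 5.66 to 5.90 in euploid arrays; the part of blood in this result was not tested. Gnpnat1, of the hexosamine pathway, followed, at 4.87, 4.46, 4.89 and 5.22, 5.00 in Eup274, and 5.79, 5.65, 5.24, 5.56 and 5.45 (0.65, FDR 0.13 as labelled). The largest falls as labelled were in Snord85 and in the small nucleolar RNAs Snora69 (-0.75) and Snord22 (-0.75), the ribosomal protein gene Rps24 (-0.73) and Sln, sarcolipin (-0.73). In Snora69 and Snord22, TS278 was as high as the euploid arrays, at 6.10 and 11.11. Without Eup274 the largest changes also included Ppbp (0.74), Stoml3 (0.73) and Ugt1a1 (-0.78); for Ppbp and Stoml3 Eup274 gave the highest value of all 10 arrays (5.16 and 7.69).

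Downstream of the interferon receptors, 51 interferon-stimulated genes outside the segment were examined. Without Eup274, 41 of the 51 had a higher mean, as did 44.3% of all probe sets outside the segment. At P below 0.05, 16 were higher (12 as labelled), where 6.2% of all probe sets were (5.36% as labelled). None was lower at this P, and none was DEX. The median log2 change of the 51 was 0.14 (0.12 as labelled). Only 14 of the 51 were above the median signal, and 4 of these were higher at this P (1 as labelled). The mean signal of the list was 6.17, 6.17, 6.12 and 6.02 in the euploid arrays, 6.20 in Eup274 and 6.18, 6.32, 6.33, 6.24 and 6.23 in the trisomic arrays. The 4 euploid arrays were below the trisomic ones, by a small margin between Eup263 and TS254, and Eup274 lay above TS254. Rsad2, viperin, read 5.37, 5.56, 5.54 and 5.55, 5.61 in Eup274, and 5.71, 5.85, 5.76, 5.75 and 5.76 (0.26 ± 0.07, FDR 0.348 without Eup274). Gbp3, a guanylate-binding protein, read 5.41, 5.77, 5.89 and 6.05, 6.16 in Eup274, and 6.27, 6.25, 6.12, 6.34 and 6.11 (FC 1.36, FDR 0.381), and Trim30a read 5.72, 5.43, 5.49 and 5.33, 5.96 in Eup274, and 5.73, 6.06, 5.93, 5.96 and 5.74 (FC 1.31, FDR 0.317). Trisomic Rsad2 lay above all euploid arrays, whereas for Gbp3 and Trim30a Eup274 lay within the trisomic range.

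Antigen presentation genes held 3 of the DEX genes without Eup274, and none as labelled. These calls rested on single arrays: with a further array left out, B2m and H2-K1 were DEX in 2 of 9 results and Ctss in 0 of 9. B2m, the light chain of class I molecules, read 10.19, 10.54, 10.32 and 10.36, 10.59 in Eup274, and 10.69, 10.99, 10.83, 10.77 and 10.81 (0.42, FDR 0.14 as labelled; 0.47 ± 0.09, FC 1.38, FDR 0.0736 without Eup274). The class I heavy chain gene H2-K1 read 7.57, 7.98, 7.73 and 7.83, 8.12 in Eup274, and 8.11, 8.49, 8.22, 8.32 and 8.34 (FC 1.43, FDR 0.0871). Ctss, a lysosomal protease of microglia that processes class II antigens, read 9.46, 9.53, 9.52 and 9.56, 9.71 in Eup274, and 9.87, 9.81, 9.95, 9.83 and 9.79 (FC 1.26, FDR 0.0829). B2m and Ctss did not overlap between the trisomic and the 5 euploid arrays, and in H2-K1 Eup274 overlapped with TS254. Of 18 class I genes, 5 were higher and 0 lower at P below 0.05 without Eup274 (4 and 1 as labelled), among them H2-Q6 (0.47) and H2-D1 (0.32), but the median was 0.03. Class I genes are closely related in sequence, so their probe sets may share signal. Of 14 class II genes, 1 was higher (Ctss) and 1 lower: Rfx5, a factor of the class II promoter complex, read 7.57, 7.56, 7.46 and 7.47, 7.12 in Eup274, and 7.33, 7.39, 6.96, 7.29 and 7.34 (FC 0.84, FDR 0.666 without Eup274; -0.17 as labelled). Of 25 microglial genes, 5 were higher at P below 0.05 without Eup274, where 6.2% of all probe sets were, and 3 as labelled (median 0.04 and 0.03), and their mean signal was 7.65 to 7.75 in the 4 euploid and 7.67 to 7.88 in the trisomic arrays; their part in the change of Ctss was not tested.

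The promoters of B2m, Ctss and Gbp3 are shown as examples of immune genes described above whose window holds the motif searched, and were chosen after their values were seen (RefSeq, GRCm38.p6, plus strand, 250 bases before to 50 bases after the annotated start). Capitals mark GAAANNGAAA or its reverse complement TTTCNNTTTC, the core of an interferon-stimulated response element; matches on both strands were searched.
B2m promoter, chr2:122147437-122147736: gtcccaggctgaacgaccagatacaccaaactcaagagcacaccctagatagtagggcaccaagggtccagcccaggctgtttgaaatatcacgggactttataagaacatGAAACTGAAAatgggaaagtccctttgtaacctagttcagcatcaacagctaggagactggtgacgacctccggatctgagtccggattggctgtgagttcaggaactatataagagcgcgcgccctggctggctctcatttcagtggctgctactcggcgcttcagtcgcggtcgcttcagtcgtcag
Ctss promoter, chr3:95526536-95526835: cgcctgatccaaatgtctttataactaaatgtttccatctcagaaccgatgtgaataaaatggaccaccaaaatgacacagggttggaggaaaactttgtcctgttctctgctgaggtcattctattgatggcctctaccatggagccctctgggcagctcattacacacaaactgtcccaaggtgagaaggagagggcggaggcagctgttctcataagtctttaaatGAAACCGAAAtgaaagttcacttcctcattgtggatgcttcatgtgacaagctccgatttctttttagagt
Gbp3 promoter, chr3:142559794-142560093: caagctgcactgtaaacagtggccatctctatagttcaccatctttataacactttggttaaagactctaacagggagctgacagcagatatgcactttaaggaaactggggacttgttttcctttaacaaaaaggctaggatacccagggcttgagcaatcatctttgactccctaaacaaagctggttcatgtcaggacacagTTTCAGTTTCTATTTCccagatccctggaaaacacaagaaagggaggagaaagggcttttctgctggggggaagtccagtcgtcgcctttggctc
The match began 139 bases before the start in B2m, 21 in Ctss, and 45 and 39 (overlapping matches) in Gbp3. The motif was found in 1131 of 32851 promoter windows of this length (3.44%), in 21 of 45 windows of interferon-stimulated genes (46.7%) and in 5 of 17 windows of class I genes (29.4%). Interferon-stimulated genes that passed P below 0.05 held it as often as those that did not (7 of 15 and 14 of 30 windows). A match describes the letters of the window only.

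**Figure D5:**
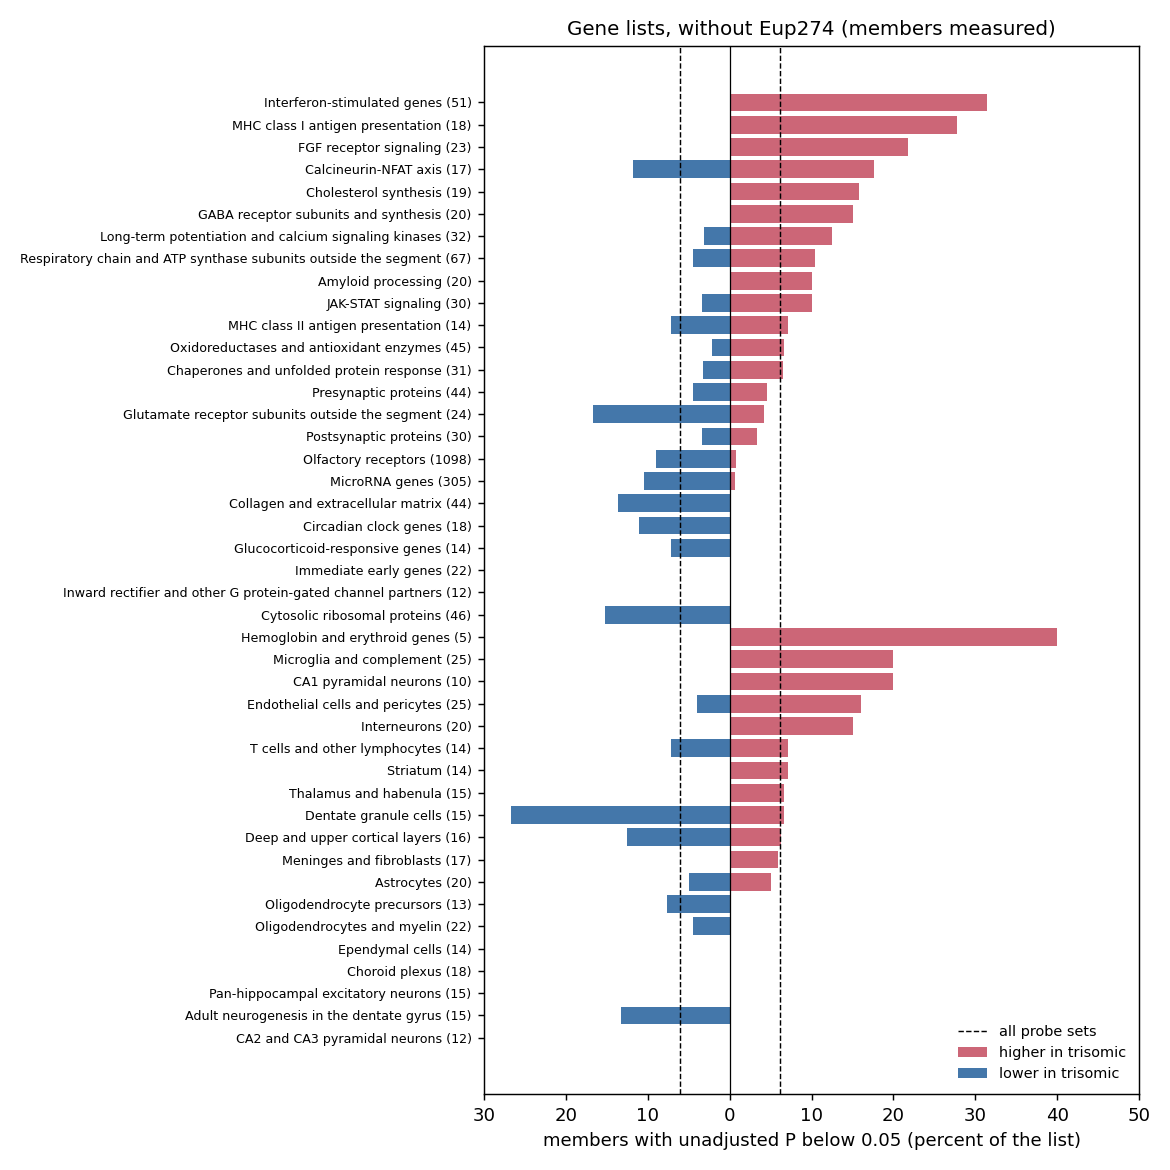
Percent of the members of each gene list that were higher or lower in trisomic hippocampus at an unadjusted P below 0.05 without Eup274 (x axis, percent), by list (y axis), with dashed lines at the shares of all 21225 probe sets, 6.2% higher and 6.13% lower. Interferon-stimulated genes stand to the right with 16 of 51 higher, while the choroid plexus and immediate early gene lists have none.

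Genes of neuronal transmission outside the segment are set beside the shares of all probe sets at P below 0.05, 6.2% higher and 6.13% lower without Eup274 (5.36% and 4.72% as labelled). Of 44 presynaptic genes 2 were higher and 2 lower without Eup274 (1 and 1 as labelled), and of 30 postsynaptic genes 1 and 1 (1 and 0). Among 24 glutamate receptor subunits 1 was higher and 4 lower (1 and 3 as labelled), with Grin2c, an NMDA receptor subunit, at 7.73, 7.66, 7.69 and 7.61, 7.41 in Eup274, and 7.42, 7.38, 7.46, 7.40 and 7.24 (-0.29 ± 0.07, FDR 0.246). Among 20 genes of GABA receptors and synthesis 17 had a higher mean, 3 were higher at P below 0.05 and none was lower (16, 2 and none as labelled). Gabrg3, a GABA-A receptor subunit, read 8.64, 8.28, 8.58 and 8.36, 8.78 in Eup274, and 8.89, 8.82, 8.74, 8.93 and 8.81 (0.37 ± 0.08, FDR 0.246), and Gad2, a GABA-synthesizing enzyme, had a change of 0.24 (FDR 0.494). For Grin2c the 4 euploid arrays lay above all trisomic arrays, and for Gabrg3 below them. The interneuron list, which shares Gad2, had 3 of 20 higher (median 0.07; 3 and 0.05 as labelled), with Tac1, the precursor of substance P, at 6.32, 6.21, 6.46 and 6.41, 6.52 in Eup274, and 6.33, 6.81, 7.11, 6.74 and 6.73 (0.40 ± 0.13, FDR 0.61). TS277, in which the striatum list was highest, gave the highest Tac1 value, and the part of neighbouring tissue was not tested.

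Of 15 dentate granule cell markers 12 had a lower mean in trisomic hippocampus, 4 were lower at P below 0.05 without Eup274 and 1 was higher, with a median of -0.12 (3, 1 and -0.13 as labelled). C1ql2, a synaptic organizer secreted by mossy fibers, read 9.31, 9.08, 9.47 and 9.23, 9.10 in Eup274, and 9.03, 8.87, 8.82, 8.84 and 8.93 (-0.37 ± 0.08, FC 0.77, FDR 0.235). All trisomic arrays were below all euploid arrays. Calb1, calbindin, was the higher member, at 10.12, 10.14, 10.16 and 10.22, 10.36 in Eup274, and 10.27, 10.40, 10.47, 10.47 and 10.34 (0.23 ± 0.07, FDR 0.485). The mean of the list was 8.47 to 8.55 in the 4 euploid arrays and 8.25 (TS277) to 8.50 in the trisomic arrays, which overlapped. None of 12 CA2 and CA3 genes and none of 15 genes of excitatory neurons passed P below 0.05 by limma, and the immediate early genes gave 0 of 22, with 17 of the 22 lower in mean (median -0.09). Adcy1, a calcium-stimulated adenylyl cyclase of potentiation, was the lower member among 32 genes of long-term potentiation, at 10.66, 10.57, 10.41 and 10.47, 10.21 in Eup274, and 10.18, 10.31, 10.04, 10.34 and 10.09 (-0.34 ± 0.08, FDR 0.326), and 4 others were higher.

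Among the lists of general cell function, 44 collagen and matrix genes had 6 lower and none higher at P below 0.05 without Eup274 (median -0.10), where 6.13% of all probe sets were lower, but 2 lower as labelled, where 4.72% were (median -0.07). The 46 cytosolic ribosomal protein genes had 7 lower and none higher (median -0.05), and 8 and 1 as labelled. Of 67 respiratory chain and ATP synthase genes outside the segment 7 were higher and 3 lower in both comparisons (median 0.02 without Eup274), and of 45 oxidoreductases 3 were higher and 1 lower (median 0.04), beside 4 and 0 as labelled. The 1098 olfactory receptor genes, of which 3 were above the median signal, had 9 higher and 99 lower (median -0.07), and 10 and 70 as labelled. Of 18 choroid plexus genes 17 had a lower mean in both comparisons, and none passed P below 0.05 by limma (median -0.16 without Eup274 and -0.21 as labelled). Outside the segment, 44.3% of all probe sets had a higher mean without Eup274 and 45.0% as labelled. The 18 genes were low together in TS254 and Eup279, so the 17 are not separate observations. Without TS254 the change of Ttr went from -0.35 to 0.23, and those of Kl, Folr1, Tmem72 and Slc13a4 also turned positive.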

How the data were processed

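Total RNA of hippocampus was labelled with the GeneChip WT PLUS kit and hybridized to Affymetrix Mouse Gene 1.0 ST arrays. The deposited values are log2 signals that the authors made by RMA (background correction, quantile normalization and summarization), with 1 probe set per Entrez gene from a custom chip definition, separately for each line and tissue. Of 21225 probe sets, 20768 were named through RefSeq (GRCm38.p6) and 457 kept their ID. Arrays give no counts, so the number of animals limits the precision. The values of the hippocampus table equalled those of the whole-series table.

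Trisomic and euploid animals were compared with limma (version 3.58.1 in R 4.3.3, statmod 1.5.0), two-sided, with Benjamini-Hochberg adjustment over the 254700 P values of all 12 comparisons. FC is 2 to the power of the log2 difference. Differences between regions or lines were tested as contrasts of changes, adjusted over 21225 probe sets. The other hippocampus, cortex and cerebellum arrays entered those contrasts, the joint adjustment and the values given for those regions and lines. The E15.5 forebrain arrays entered the joint adjustment. Repeat arrays of the same animal and tissue were averaged. Tables and figures were made with python 3.11.15, numpy 2.4.6, pandas 2.3.3 and matplotlib 3.10.9. Each fit was first tested on simulated data.

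Gene lists (24 pathway, 19 marker and 8 segment role lists, the last holding 96 segment probe sets) and the genes named were chosen with earlier results of these data known. Named were all DEX genes, segment genes that the study names in its expression results with Rfx5, the 5 largest MDG rises and falls, for each list up to 3 genes by P, segment microRNA genes and genes past a contrast. Lists are described by counts and medians beside all probe sets, without a list test, and pathway and marker lists leave out segment genes.

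Alternatives were the unpaired t-test of the study's methods, trend and robust moderation, array weights, a further quantile normalization, median centring, a filter on dim probe sets, adjustment within the comparison, a stricter FC limit, each animal left out, and the animal as a block. Behavioral, histological and quantitative PCR data of the study were not analysed here.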

Additional observations from a re-analysis of the deposited data

Results flagged for a closer look

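Among the 5 arrays of a group, a value whose gap to its neighbour exceeded 0.710 of the group's range was marked as standing apart. This was checked in 86 groups (42 genes and the segment mean, in each group), where chance marks about 1 in 20 groups, and it occurred in 14. The genes checked had been chosen mostly as DEX genes or for the size of their change, and the segment values had already set Eup274 apart, so that share is no yardstick for the 14. Eup274 accounted for 10 of them. It was the highest euploid array for the mean segment signal (8.89 against 8.42 to 8.47) and for App (12.8), Atp5j (10.9), Mrpl39 (9.51), Cryzl1 (9.00), Jam2 (9.27), Ltn1 (8.63) and Brwd1 (8.62), all in the segment, and outside the segment it was the highest for Htr3a (8.14) and the lowest for Cyp11a1 (4.35 against 5.23 to 5.43). Eup260 was the highest euploid array for Snord85 (5.62 against 4.90 to 4.97), and TS278 the highest trisomic array for Olfr45 (4.38 against 4.11 to 4.18). The choroid plexus gene Ttr was low in Eup279 (11.5) and TS254 (10.3).

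Some changes differed between regions or lines by the test of the difference itself. The change of Zc3hav1 in hippocampus minus that in cerebellum was -0.79 without Eup274. Against Ts65Dn, the differences as labelled were -0.69 for Synj2, -0.54 for Tulp4, -0.52 for Scaf8, -0.69 for Olfr1278 and -1.03 for Rsph3a. The changes of Olfr1278 (-0.18 and 0.50) and Rsph3a (-0.37 and 0.65) had opposite signs in Dp(16)1/Yey and Ts65Dn. Without Eup274 the differences against Ts65Dn were 0.76 for D16Ertd472e, -0.69 for Synj2, -0.73 for Olfr1278 and -0.54 for Tulp4. Against Ts1Cje, the differences were 0.81 for Itgb8, 0.66 for Tmem196, 0.52 for Sp4 and -3.51 for Dnah11 as labelled. Without Eup274 they were 0.81 for Itgb8, 0.67 for Ncam2, 0.61 for Mrpl39, 0.66 for Tmem196, 0.59 for N6amt1, -3.48 for Dnah11 and -1.0 for Snord85. The chromosome 12 and chromosome 17 genes among them lie where Ts1Cje and Ts65Dn differ from Dp(16)1/Yey in their own rearrangements.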

How the results depend on the processing

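The 14 DEX genes as labelled became 34 with trend and robust moderation, 35 with array weights, 31 among probe sets above the median signal and 0 when adjusted within the hippocampus comparison alone (2140 had an unadjusted P below 0.05), and ranged from 4 to 62 with 1 array left out, 62 being without Eup274. The methods' t-test gave 11, of which 1 lay in the segment and 10 outside. Without Eup274 the 62 became 108 with array weights and 47 to 86 in the other settings (t-test 56). Of the 62, 35 remained in each of the 9 results with a further array left out (29 of 45 in the segment, 6 of 17 outside), and 37 remained by t-test (33 and 4). These settings were chosen after seeing the data. MDGs by limma numbered 380 as labelled, 185 above the median signal and 328 to 619 with 1 array left out. The methods' t-test gave fewer than 380 as labelled. With a stricter FC limit for higher genes there were 249 MDGs as labelled, of which 137 were higher. Segment genes higher at P below 0.05 were 57 to 71, and the median FC 1.26 to 1.35, with 1 array left out. Between hippocampus and cerebellum, 0 genes became 1 without Eup274 or without Eup279, and 3 with the animal number as a replicate block and Eup274 left out (Zc3hav1, Th and Ifit1); the block alone gave 0 for cortex and 0 for cerebellum, with a correlation between regions of 0.0186 and 0.0864. Against Ts65Dn the 6 genes became 1 to 5 with 1 array left out. Against Ts1Cje the 4 became 18 without Eup274 and 4 to 5 with another array left out. Of 260 genes followed through the settings of the labelled comparison, 22 changed sign in at least 1, Sod1, Clic6 and Ttr (-0.35 as labelled, 0.23 without TS254) among them, and 0 of these were DEX as labelled or without Eup274.

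The 5 animals per group and the array labelled Eup274 limit the precision. Probe sets below the median signal, 73 of them in the segment, carry little information on FC.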
